A study of Mus musculus with 22 samples.

Results

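Transcript levels of 10 mouse genes that govern the release of RNA polymerase II into productive elongation were followed through 10 compound treatments of embryonic stem cells. The genes were taken by symbol from a table of 18487 genes, and all 10 were found. They fall into 3 roles: the 7SK complex that holds the elongation kinase inactive (Hexim1, Hexim2, Larp7, Mepce), the kinase P-TEFb itself (Cdk9, Ccnt1, Ccnt2), and the super elongation complex that carries the kinase to genes (Aff4, Aff1, Ell2). Values are normalized read counts, which the authors had brought to a common distribution across libraries and rounded to whole numbers. The reads behind each library are therefore unknown, and the precision of a value can be judged only from the 2 libraries of its group.

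All cells were of the mouse embryonic stem cell line E14, which the study's methods describe as grown with serum and LIF. Messenger RNA was enriched on oligo-dT beads, so only polyadenylated transcripts were sampled well. There were 22 libraries in 11 groups, 2 to a group, and each comparison asks how a compound's group differs from the group labelled NC, the only label that names no compound. Neither a dose nor an exposure time was stated, and nothing in the labels says whether the 2 libraries of a group came from separate cultures, so p-values measure the spread between these libraries only. Bromosporine is a broad inhibitor of bromodomains. Valproate is an inhibitor of histone deacetylases. CPTH2 and Garcinol act against histone acetyltransferases. Chaetocin, UNC0379 and MS023 act against methyltransferases, those of histone lysines in general, SETD8, and type I arginine methyltransferases respectively. DZNep blocks S-adenosylhomocysteine hydrolase, which leaves cells with less capacity to methylate. IOX1 is a broad inhibitor of 2-oxoglutarate oxygenases. OICR is a label only, and the compound behind it was not spelled out.

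After it starts transcription, RNA polymerase II pauses a short way into most genes under the hold of the factors DSIF and NELF. P-TEFb, made of the kinase CDK9 and cyclin T1 or T2, phosphorylates these factors and the polymerase and so frees it. Cells keep much of their P-TEFb bound to 7SK, a noncoding RNA that MEPCE caps, LARP7 shields at its 3′ end, and HEXIM1 or HEXIM2 uses to block the kinase. AFF1 and AFF4 are scaffolds that join free P-TEFb to elongation factors such as ELL2. Because the RNA is a total over the cells of a culture, fewer cells with a transcript and less of it per cell cannot be told apart.

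The promoters of Hexim1 and Aff4 are shown because these were the members with the highest and the lowest levels with DZNep relative to NC. RefSeq windows on GRCm38.p6 were found for 8 of the 10 genes, in 9 windows, and the bases upstream of the GENCODE start (Hexim1) or the RefSeq start (Aff4) are printed, both on the plus strand of chromosome 11. Capitals mark matches, on either strand, to the TATA box TATANAA, the CCAAT box, the GC box GGGCGG and the E-box CACGTG.
Hexim1, chr11:103116075-103116230: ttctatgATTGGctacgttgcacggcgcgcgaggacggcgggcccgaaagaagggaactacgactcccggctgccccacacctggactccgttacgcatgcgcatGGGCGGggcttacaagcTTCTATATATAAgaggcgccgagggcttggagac
Aff4, chr11:53350517-53350766: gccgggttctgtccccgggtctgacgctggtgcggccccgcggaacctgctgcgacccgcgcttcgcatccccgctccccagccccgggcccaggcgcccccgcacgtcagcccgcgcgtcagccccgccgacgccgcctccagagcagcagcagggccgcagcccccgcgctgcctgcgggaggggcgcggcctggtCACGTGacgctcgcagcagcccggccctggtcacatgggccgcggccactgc

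Hexim1 was the only member with a TATANAA match, which began 29 bases before its GENCODE start and overlapped a match on the minus strand. Of all 32851 windows, 11.3% held this motif. The CACGTG of Aff4 was in no other member's window and in 7.15% of all windows. CCAAT stood in 5 of the 9 windows of members (37.4% of all windows) and GGGCGG in 8 of 9 (35.7%). TGACGTCA, the full cAMP response element, was found in Larp7 and Ell2 and in 1.79% of all windows, and lay in neither printed stretch. The full window of Aff4 had a GC content of 79% with 44 CpG dinucleotides and that of Hexim1 61% with 21, against medians of 52.7% and 7 over all windows. These matches describe the letters only.

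Levels were compared between genes in NC per kilobase of the longest coding transcript (GENCODE M21, mm10). Cdk9 (chromosome 2, 32705784 to 32713076, minus strand) had the highest level at 1660 normalized counts per kilobase, followed by Larp7 (chromosome 3, 127536714 to 127553349, minus strand) at 1523. Of the cyclins, Ccnt2 (chromosome 1, 127774164 to 127808061, plus strand) stood at 958 and Ccnt1 (chromosome 15, 98538689 to 98570923, minus strand) at 267. The scaffold Aff1 (chromosome 5, 103692374 to 103855322, plus strand) stood at 894 and Aff4 (chromosome 11, 53350833 to 53421830, plus strand) at 632. Mepce (chromosome 5, 137781906 to 137787655, minus strand) reached 711 and Ell2 (chromosome 13, 75706757 to 75772364, plus strand) 310. The inhibitors were unequal: Hexim1 (chromosome 11, 103116231 to 103119725, plus strand, a gene of 1 exon) reached 399, and its neighbour Hexim2 (chromosome 11, 103132429 to 103139876, plus strand) 58.1. The Hexim genes are 12703 bases apart with 0 annotated genes between them.

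For Larp7, 23.5% of the 31-base stretches of its transcript also occur in Gm12666 or Gm31104, so part of its reads could be shared with these copies. Gm12666 itself had 198 to 332 normalized counts, against 1911 to 5407 for Larp7. The share was 8.66% for Ccnt1. Exons of Ccnt1 and Ell2 overlap those of 9330020H09Rik and 1700037F03Rik on the opposite strand, and counting by strand was not stated.

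**Figure D1:**
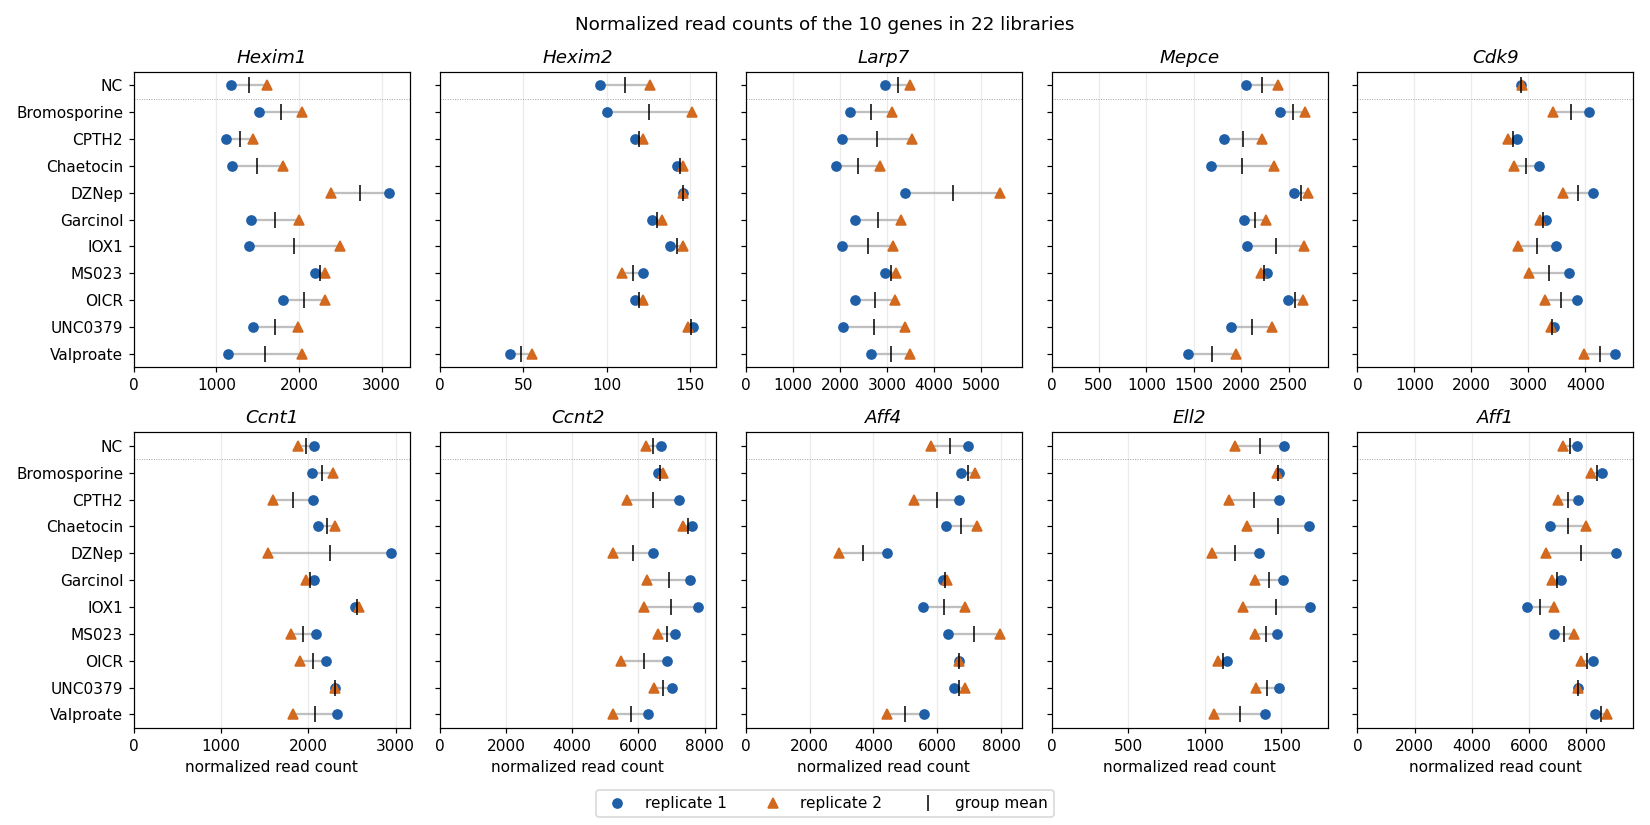
Normalized read counts (x axis, linear from 0) of the 10 genes in the 2 libraries of each of the 11 groups (y axis), with circles for replicate 1, triangles for replicate 2 and a bar at the group mean. Hexim2 with Valproate (42 and 55) stands to the left of all other groups. Aff4 with DZNep (4421 and 2930) has the lowest mean and meets Valproate at 4421. Cdk9 with Valproate (4520 and 3983) has the highest mean and overlaps DZNep.

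Over the 11 groups, 3 of the 10 genes differed beyond the spread between libraries: Hexim2, Aff4 and Cdk9, 1 from each role. In limma's F test with Benjamini-Hochberg adjustment over all genes, the adjusted p was 0.00224 for Hexim2, 0.0314 for Aff4 and 0.0444 for Cdk9. Of all 17275 genes tested, 29.7% passed, so the share among the members was that of the background. For the other members the adjusted p ran from 0.202 (Mepce) to 0.778 (Ccnt1). With the replicate number as a block, 7 members passed, beside 65.9% of all genes. Cdk9 rests on many libraries here, since it missed the threshold in 14 of the 22 fits that left out a single library (adjusted p up to 0.111), and Aff4 missed it in 6 of them (up to 0.147).

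Against NC, Hexim2 fell with Valproate, and this was the only pair of the 100 pairs of gene and compound called at an adjusted p under 0.05 and a fold over 2. Over all genes and compounds, 2.15% of tests were called. Without the condition on fold, 3 more pairs passed: Cdk9 rose with Valproate and with DZNep, and Aff4 fell with DZNep. That makes 4 of 100, beside 4.23% of all tests. In 94 pairs the estimated change was under 0.5 on the log2 scale in either direction, and the 95% intervals of Hexim1 and Larp7 reached past that size with every compound. The 10 comparisons share the NC libraries and are not independent of each other.

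**Figure D2:**
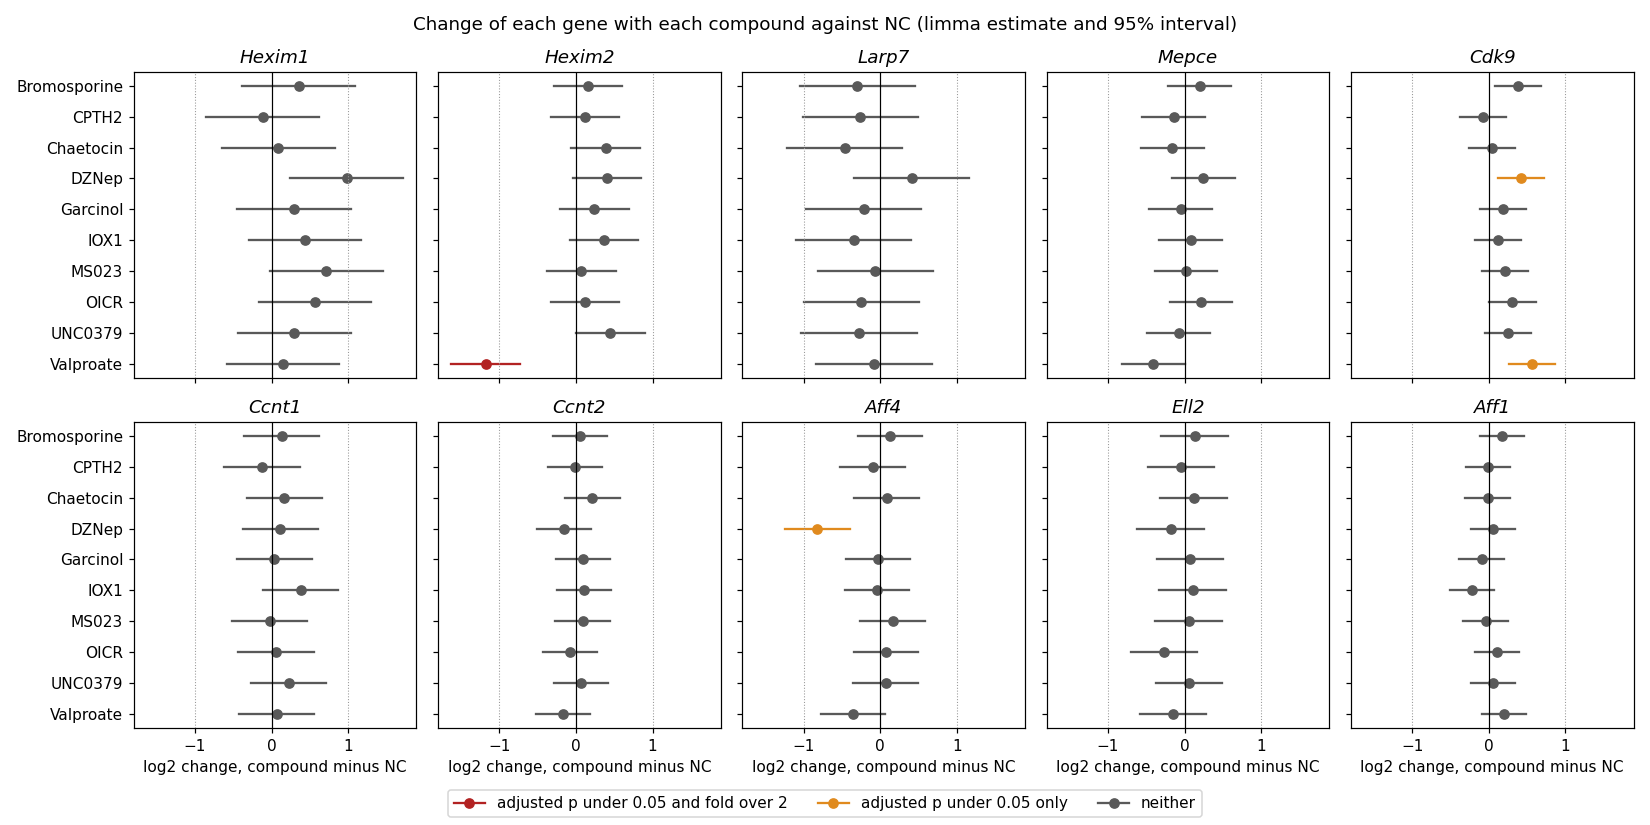
Log2 change of each of the 10 genes (panels) with each compound (y axis) against NC on the log2(value + 1) scale (x axis), with limma's estimate as a point and its 95% interval as a line. Only Hexim2 with Valproate lies beyond a 2-fold change with an adjusted p under 0.05, and 3 further points (Cdk9 with DZNep and Valproate, Aff4 with DZNep) pass the adjusted p alone.

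Hexim2, the less abundant inhibitor, had 96 and 126 normalized counts in NC and 42 and 55 with Valproate, a group mean of 48.5 ± 9.19 (SD, n = 2). Each library of the other 10 groups was at 96 or above, so Valproate stood below them all without overlap. The log2 change against NC was -1.18 (95% interval -1.63 to -0.73, limma Benjamini-Hochberg adjusted p = 0.00328), and it was -1.17 between the libraries numbered 1 and -1.18 between those numbered 2. The size lay close to the 2-fold limit, and the call was lost without NC replicate 2 (-0.98) or Valproate replicate 1 (-0.99). With only the Valproate and NC libraries in the fit, the limma adjusted p was 0.231.

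The remaining groups of Hexim2 formed a narrow range. UNC0379 was highest (152 and 149), then DZNep (146 and 146), Chaetocin (142 and 146) and IOX1 (138 and 146). Below them came Garcinol (127 and 133), Bromosporine (100 and 151), CPTH2 and OICR (117 and 122 each) and MS023 (122 and 109). Between neighbours in this order, only UNC0379 and DZNep, IOX1 and Garcinol, and NC and Valproate did not overlap. With UNC0379 the log2 change was 0.45 (limma adjusted p = 0.821). Equal values in the 2 libraries of a group, as with DZNep, can arise because normalization left a limited set of possible values.

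Hexim1, the more abundant of the inhibitors in NC, had Valproate libraries (1142 and 2039) on both sides of those of NC (1181 and 1607). Whether Hexim1 and Hexim2 differ in their change with Valproate was not tested. With DZNep Hexim1 had 3085 and 2393 normalized counts, the first of them the highest of all libraries and the second exceeded outside DZNep only by IOX1 replicate 2 (2491). The log2 change was 0.98 (95% interval 0.24 to 1.72), and it missed the threshold (limma adjusted p = 0.0534, but 0.00317 with the replicate number as a block). It was 1.38 between the libraries numbered 1 and 0.57 between those numbered 2.

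In order of group means, DZNep was followed by MS023 (2199 and 2317), OICR (1803 and 2310), IOX1 (1397 and 2491), Bromosporine (1519 and 2039), UNC0379 (1442 and 1984), Garcinol (1415 and 2005), Valproate, Chaetocin (1183 and 1810), NC and CPTH2 (1117 and 1446). Only DZNep and MS023 were neighbours without overlap. MS023 had the next largest change, 0.71 on the log2 scale (limma adjusted p = 0.354). The transcript of Hexim1 is known to rise in many cells under inhibitors of the BET class of bromodomain proteins, and with Bromosporine its 2 libraries overlapped those of NC. The log2 change there was 0.35 (95% interval -0.38 to 1.09), 0.36 and 0.34 by number. That interval leaves both no change and a rise of about 2-fold possible.

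Larp7 and Mepce, the stabilising proteins of 7SK, were not called with any compound. Larp7 ranged over all libraries from 1911 (Chaetocin replicate 1) through a median of 3035 to 5407 (DZNep replicate 2). Its DZNep libraries (3387 and 5407) overlapped those of NC (2968 and 3492), and no neighbouring groups in its order were separate. Mepce ranged from 1435 (Valproate replicate 1) to 2710 (DZNep replicate 2) around a median of 2269. With Valproate it had 1435 and 1950 normalized counts against 2055 and 2393 in NC. These groups did not overlap, yet the log2 change of -0.41 (SE 0.19) missed the threshold (limma adjusted p = 0.208). With the replicate number as a block, the limma adjusted p was 0.0191 for this change and 0.0277 for Larp7 with DZNep.

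Cdk9, the kinase subunit, was higher with Valproate and DZNep. NC had 2868 and 2885 normalized counts, Valproate 4520 and 3983, and DZNep 4135 and 3600. All 4 compound libraries lay above both NC libraries, as did those of most other compounds, and those of Valproate and DZNep overlapped each other. With Valproate the log2 change was 0.56 (95% interval 0.26 to 0.86, limma adjusted p = 0.0208), 0.66 between the libraries numbered 1 and 0.47 between those numbered 2. With DZNep it was 0.42 (95% interval 0.12 to 0.73, limma adjusted p = 0.0421), 0.53 and 0.32 by number.

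The Valproate change of Cdk9 no longer passed without NC replicate 1 (limma adjusted p = 0.102), NC replicate 2 (0.0919) or Valproate replicate 1 (0.151). That with DZNep lost its pass without either NC library, DZNep replicate 1, or any library of CPTH2, Garcinol or UNC0379, with limma adjusted p up to 0.209. It also failed to pass without a variance trend (limma adjusted p = 0.0578), with adjustment over all 10 comparisons (0.153) and against the mean of the other 10 groups (0.111). With only the libraries of a compound and NC in the fit, the limma adjusted p of Cdk9 was 0.176 with Valproate and 0.16 with DZNep. The other groups descended from Bromosporine (4066 and 3429) and OICR (3847 and 3298) through UNC0379 (3446 and 3394), MS023 (3707 and 3005), Garcinol (3312 and 3207), IOX1 (3479 and 2823) and Chaetocin (3178 and 2745) to NC and CPTH2 (2805 and 2650). Among neighbours, NC and CPTH2 alone did not overlap. Bromosporine and OICR had no library that overlapped NC, with log2 changes of 0.38 (limma adjusted p = 0.146) and 0.31 (0.448). With the replicate number as a block, the limma adjusted p for Bromosporine was 0.0102. UNC0379, MS023 and Garcinol also had both libraries above both of NC, and CPTH2 had both below. The NC libraries of Cdk9 lay close together (SD 12), so a lack of overlap with them was common and not particular to a few compounds.

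Of the cyclin partners, neither passed with any compound. Ccnt2 stayed between 5232 (Valproate replicate 2) and 7813 (IOX1 replicate 1) with a median of 6593, and none of its neighbouring groups were separate. Its group means spanned 1.3-fold, the narrowest span among the 10 genes. Ccnt1 had its lowest and its highest value in the same group, 1543 and 2944 with DZNep. Without DZNep its values lay between 1590 (CPTH2 replicate 2) and 2586 (IOX1 replicate 2), and IOX1 (2540 and 2586) did not overlap the next group, UNC0379. The largest estimated change of Ccnt1 was with IOX1, at 0.38 on the log2 scale.

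Aff4, a scaffold of the super elongation complex, fell with DZNep. NC had 6960 and 5811 normalized counts and DZNep 4421 and 2930. The DZNep libraries were below every other library of the series except for a tie at 4421 with Valproate replicate 2. The log2 change against NC was -0.82 (95% interval -1.24 to -0.40, limma adjusted p = 0.00782), -0.65 between the libraries numbered 1 and -0.99 between those numbered 2. It did not pass without NC replicate 1 (limma adjusted p = 0.0853) or DZNep replicate 2 (0.0775). It exceeded 2-fold without DZNep replicate 1 (-1.12). With only the DZNep and NC libraries in the fit, the limma adjusted p was 0.179.

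Next above DZNep came Valproate (5578 and 4421), whose log2 change of -0.36 missed the threshold (limma adjusted p = 0.278). The other groups of Aff4 were CPTH2 (6692 and 5268), IOX1 (5554 and 6858), Garcinol (6176 and 6297), NC, UNC0379 (6508 and 6858), OICR (6692 and 6692), Chaetocin (6261 and 7235), Bromosporine (6741 and 7179) and MS023 (6333 and 7978), in rising order of their means. Every group shared part of its range, or an equal value, with its neighbour.

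Aff1, the related scaffold, did not pass with DZNep. Its DZNep libraries were far apart (9047 and 6604) around those of NC (7687 and 7192). The groups of Aff1 ran from IOX1 (5938 and 6871) to Valproate (8319 and 8733), a 1.33-fold span of group means, and only UNC0379 and NC were neighbours without overlap. Ell2, an elongation factor of the same complex, had 1519 and 1199 normalized counts in NC, and over all libraries 1046 (DZNep replicate 2) to 1684 (IOX1 replicate 1) with a median of 1343. Neither gene passed with any compound.

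By compound, the members that passed were few with DZNep and Valproate and absent with the rest. With DZNep 2 of 10 passed the adjusted p at any fold, where 23.6% of all genes did, and none was called (11.4%). There the members' median log2 change was 0.18 beside -0.04 for all genes. Libraries that did not overlap NC were found for 4 members on the higher side (26.5% of all genes) and for Aff4 on the lower side (32.4%). With Valproate 2 of 10 passed (10.3% of all genes), and Hexim2 alone was called (5.28% of all genes, and 2.55% called lower). Without overlap, 2 members were higher (23% of all genes) and 3 lower (27.6%). The members' median log2 change was -0.11 beside -0.02 for all genes. With Bromosporine no member passed (5.4% of all genes), although Cdk9 had an unadjusted limma p under 0.05. No member passed with any of the other 7 compounds, for which the share of all genes was 0% (UNC0379), 0.00579% (CPTH2, Garcinol), 0.0174% (Chaetocin), 0.127% (IOX1), 0.637% (OICR) and 2.21% (MS023), and an unadjusted p under 0.05 was found once with OICR and once with UNC0379.

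Marker sums differed between the same groups, and their part in these results was not tested. The 10 embryonic stem cell markers were all found and summed to 178012 to 284402 normalized counts over the libraries, with both DZNep libraries (275811 and 284402) above all others and NC at 214081 and 213620. Neural markers (5 of 5 found) summed to 4106 and 4875 with DZNep against 1889 and 3501 in NC, over a range of 1222 to 4875. With IOX1 they summed to 1603 and 4762, and in each group the library numbered 2 had the higher sum. The trophoblast list (3 of 4 found) gave 5263 and 5638 with Valproate and 5017 and 3744 with Bromosporine against 3469 and 2751 in NC, with a range of 2751 to 5638. Fibroblast markers (8 of 8) summed to between 99 and 1938. These sums were 1669 and 1938 for DZNep, 1613 and 1476 for Valproate and 745 and 1476 for NC. Of the 8 genes, only Dcn was at 0 in all libraries. Sums were 159 to 508 for primitive endoderm (3 of 6) over all libraries. For mesoderm and primitive streak (5 of 5) they were 624 and 482 with DZNep and 409 and 530 with Valproate against 304 and 334 in NC, within a range of 269 to 624.

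Other genes of the elongation machinery were read from 7 lists with 56 genes, all tested. With DZNep 6 of the 56 were called, all of them higher (5.27% of all genes, with 6.14% lower). With Valproate 1 was called, also higher (2.73% of all genes). No listed gene was called with any other compound. At any fold, 9 rose and 1 fell with DZNep (10.7% and 12.8% of all genes), 6 rose and 1 fell with Valproate (5.13% and 5.18%), and 1 rose with Bromosporine (1.61%). Over the 11 groups 10 of the 56 passed the F test, beside the 29.7% of all genes given above. All 7 calls were lost when only the libraries of a compound and NC were fitted, and 2 were left without NC replicate 1.

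Subunits of RNA polymerase II supplied 4 of the 6 DZNep calls, from a list of 11 genes whose median log2 change was 0.46 beside -0.04 for all genes. Polr2b, the second largest subunit, had 6290 and 7106 normalized counts in NC and 19789 and 16404 with DZNep. Its log2 change was 1.43 (SE 0.15, limma adjusted p = 2.83e-05). Polr2d (1130 and 1709 in NC, 3095 and 4004 with DZNep) rose by 1.34 on the log2 scale (limma adjusted p = 0.00437). Polr2k (845 and 1349 in NC, 1761 and 2829 with DZNep) rose by 1.06 (limma adjusted p = 0.0053). Polr2l (620 and 1142 in NC, 2256 and 2073 with DZNep) rose by 1.36 (limma adjusted p = 0.0226). Polr2d and Polr2l did not pass the F test over the 11 groups (limma adjusted p = 0.0707 and 0.161). For all 4 subunits, which were picked by their calls, both DZNep libraries lay above both NC libraries, as for 26.5% of all genes. With Valproate 3 of the 11 passed at any fold, all higher (5.13% of all genes), and the list's median was 0.32. Polr2a, the gene of the largest subunit, was named after its values were seen and did not pass with either compound. Its log2 change was -0.08 with DZNep (limma adjusted p = 0.902) and -0.82 with Valproate (0.186).

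Among the pausing factors, which P-TEFb acts on, Supt4a and Nelfe moved in opposite directions with DZNep. Supt4a, a subunit of DSIF, went from 1397 and 2154 normalized counts to 3502 and 4866 (log2 change 1.25, limma adjusted p = 0.00441). Nelfe, the RNA-binding subunit of NELF, went from 2413 and 2585 to 1825 and 2091 (-0.35, limma adjusted p = 0.0107). Together the 6 genes of this list had a median of -0.02.

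Of the BET proteins and partners, Jmjd6, a lysyl hydroxylase linked to pause release, was called with DZNep. It had 1287 and 1526 normalized counts in NC and 3060 and 2727 with DZNep, a log2 change of 1.04 (SE 0.19, limma adjusted p = 0.00131).

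In the rest of the super elongation complex, Mllt3 (AF9), which reads acylated histones, was called with Valproate. It rose from 212 and 204 normalized counts to 580 and 443, a log2 change of 1.28 (limma adjusted p = 0.00724), while the other 6 genes of the list did not pass. Ell, the relative of Ell2, had 1373 and 1409 in NC and 1709 and 1886 with DZNep (log2 change 0.37, limma adjusted p = 0.128). With IOX1 it had 945 and 1151 (-0.415, limma adjusted p = 0.321).

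Within the PAF1 complex and its partners, 11 genes in all, a few passed at any fold, all higher. These were 2 with DZNep (10.7% of all genes), 1 with Valproate (5.13%) and 1 with Bromosporine (1.61%). Leo1 passed with DZNep (1601 and 1748 to 2297 and 1965, limma adjusted p = 0.0204) and Rtf1 with Bromosporine (1506 and 1747 to 2244 and 2425, adjusted p = 0.0292). The other two, named after their values were seen, were Wdr61 with DZNep (log2 change 0.54, limma adjusted p = 0.02) and Paf1 with Valproate (0.38, adjusted p = 0.0381). Of 8 other genes for kinases that act on the polymerase tail and their partners, Cdk8 of the Mediator kinase module passed with Valproate. It went from 1223 and 1161 to 1900 and 1506 (limma adjusted p = 0.0345), beside 5.13% of all genes that passed higher. Ccnk, the cyclin of CDK12 and CDK13, was near NC with DZNep (2259 and 2037 against 2267 and 2122). Its largest change was with IOX1 (1785 and 1547, log2 change -0.40), where it did not pass (limma adjusted p = 0.153). The list for 7SK held 8 genes, those of proteins found with 7SK and that of the RNA. Of these, Syncrip fell with Valproate (19217 and 23812 to 14400 and 15598, limma adjusted p = 0.0259), and Hnrnpr passed the F test (adjusted p = 0.0103) but no single comparison. The gene of the 7SK RNA itself, Rn7sk, named after its values were seen, had 0 to 21 normalized counts with a median of 3, in libraries selected for polyadenylated RNA.

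**Figure D3:**
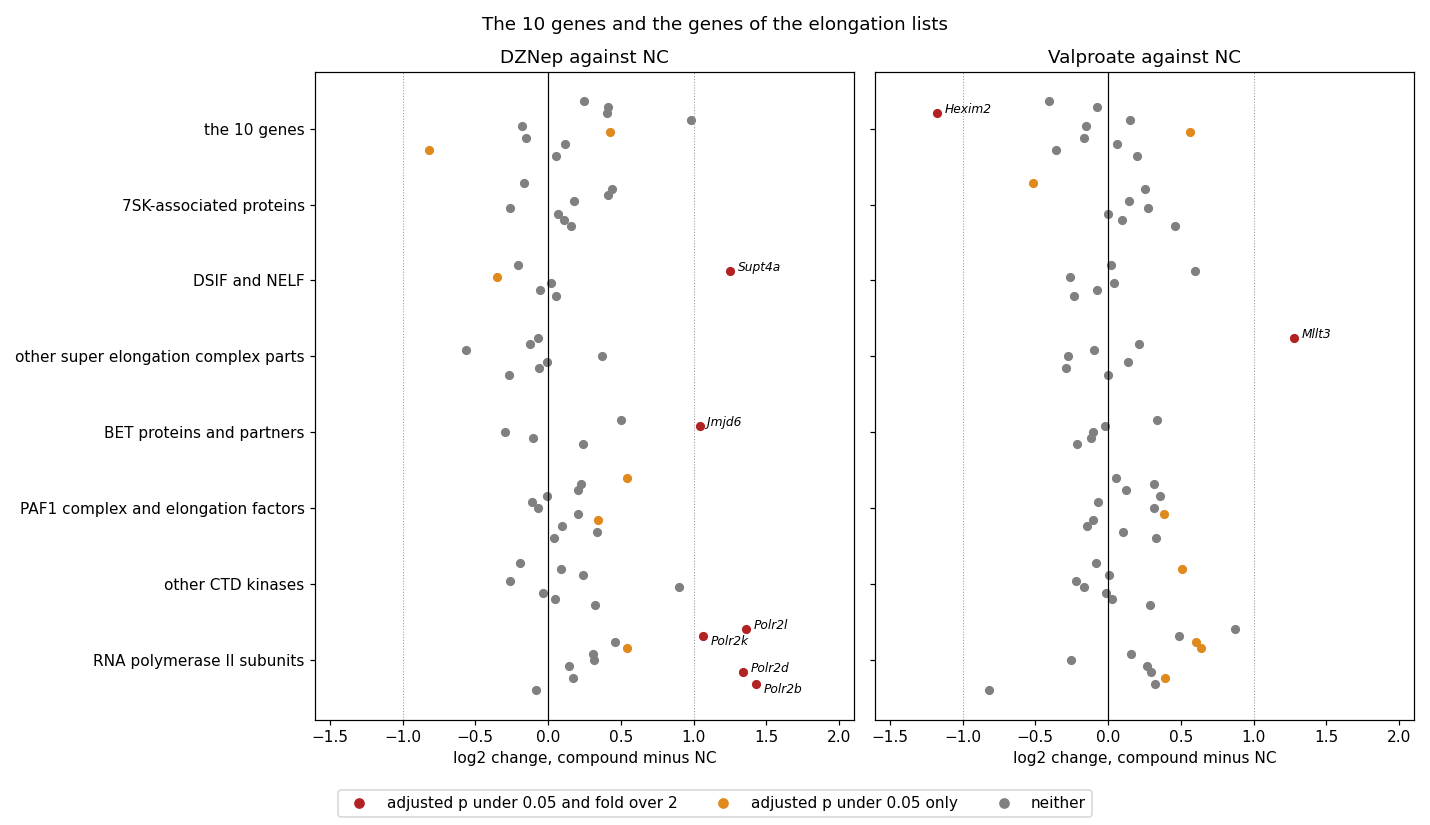
Log2 change against NC (x axis) of each gene in the 7 elongation lists and of the 10 genes in the top row, with DZNep on the left and Valproate on the right; each point is a gene, and the colour gives its test. With DZNep the called genes are the 4 polymerase subunits, Supt4a and Jmjd6, all above 1, and with Valproate they are Hexim2 below -1 and Mllt3 above 1.

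Several members also differed between the libraries numbered 1 and 2, a number whose meaning the labels do not give. Larp7 was higher in the library numbered 2 in 11 of 11 groups, with a log2 difference of 0.50 (SE 0.06, limma adjusted p = 3.63e-05). Ell2 was lower in 11 of 11 (-0.26, limma adjusted p = 0.000479). For Larp7 this difference was larger than the estimated change with any compound, and for Ell2 larger than all but that with OICR.

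Hexim1 (0.41) and Mepce (0.23) were higher in number 2 in 10 of 11 groups, with DZNep and MS023 as the respective exceptions. Cdk9 (-0.16) and Ccnt2 (-0.20) were lower in 10 of 11, except in NC and Bromosporine respectively. All 4 passed the limma test with adjusted p from 0.00135 to 0.00235. So 3 of the 4 genes of the 7SK complex were higher in number 2, while the kinase, a cyclin and an elongation factor were lower. The 6 of 10 that passed stand beside 52.6% of all genes (29.9% higher and 22.8% lower), close to the background. Hexim2, Ccnt1, Aff4 and Aff1 did not pass (limma adjusted p from 0.0929 to 0.776).

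**Figure D4:**
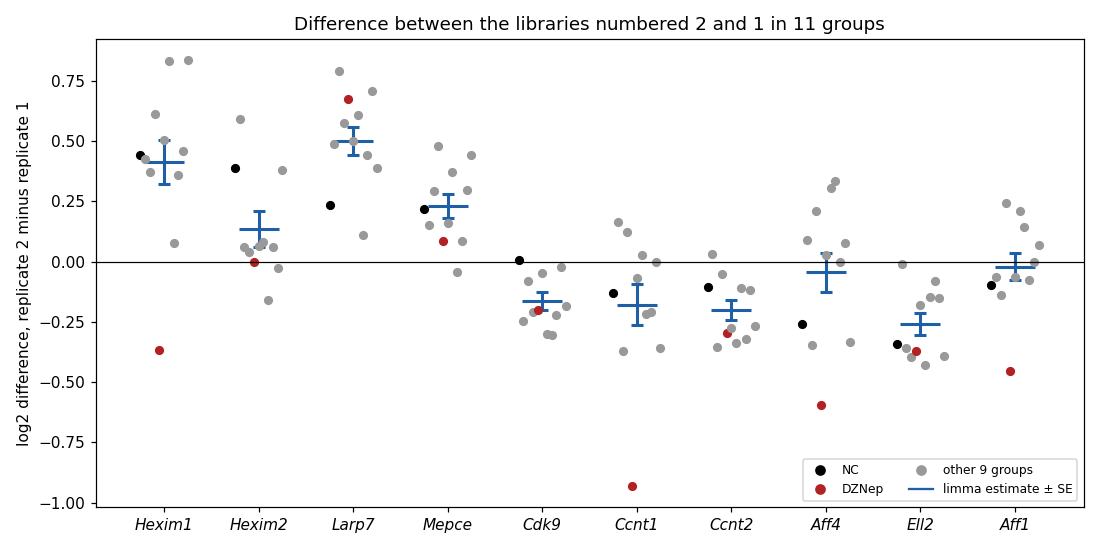
Log2 difference between the library numbered 2 and that numbered 1 of each group (y axis) for the 10 genes (x axis), with NC in black, DZNep in red and the other 9 groups in grey, and limma's estimate ± SE in blue. All 11 points of Larp7 lie above 0 and all 11 of Ell2 below it, and the DZNep points of Hexim1, Ccnt1, Aff4 and Aff1 are the lowest of their genes.

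The genes most like 4 of the members were sought among 12870 genes with a mean of at least 100, by the Pearson correlation over the 11 group means. This is a description, since the means come from shared libraries and so many genes were searched. Closest to Hexim2 were Sdhaf1 (r = 0.96), Gm12925 (0.95) and BC024978 (0.95). Sdhaf1, an assembly factor of mitochondrial complex II, had its lowest values with Valproate (196 and 274, against 301 and 499 in NC). For Hexim1 they were Taf7 (0.95), Nifk (0.94) and B4galt7 (0.94). Taf7, a subunit of the general factor TFIID, had 9031 and 6333 normalized counts with DZNep against 3125 and 4298 in NC.

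Uba2 (0.98), which encodes a subunit of the SUMO-activating enzyme, followed Cdk9 most closely, ahead of Dph1 and Tpcn2 (0.93 each). Its group means were highest with Valproate and DZNep (23680 and 24664, 24664 and 20665) and lower in NC (18252 and 19688). Those nearest to Aff4 were Gm43080 (0.97), Dusp11 (0.965) and Gm14308 (0.96), and Dusp11, a phosphatase that acts on RNA, had 1473 and 1013 with DZNep against 2389 and 1753 in NC. Over the 22 single libraries these correlations were lower, with r = 0.93 for Sdhaf1 with Hexim2, 0.76 for Taf7 with Hexim1, 0.60 for Uba2 with Cdk9 and 0.82 for Dusp11 with Aff4.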

How the data were processed

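As deposited, each value is a score: a read count per gene that the authors normalized and rounded to a whole number. The submitters' processing notes name bcl2fastq, Bowtie2 2.2.5, RSEM and mm10. The paper's methods, which leave the compounds unmentioned, describe counting with RSEM or TEtranscripts, EDASeq full normalization and DESeq2. The last of these takes raw counts and was not applied here. Full normalization gave all 22 libraries a median of 409 and can remove a change shared by most genes. A second deposited table held the authors' group means, equal to those of the first.

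Values were analysed as log2(value + 1) with limma 3.58.1 in R 4.3.3, for 17275 genes with at least 10 in at least 2 libraries. All groups were fitted together (eBayes with a trend, 11 residual degrees of freedom), and each compound was compared with NC, two-sided, with Benjamini-Hochberg adjustment within a comparison. A call needed an adjusted p under 0.05 and a fold over 2. Fold changes on this scale understate those of genes with low values. Replicate numbers were compared with the groups as terms. The fit was tested on simulated data. The members, lists and rules were chosen with earlier results of these data known. Named genes are all members, list genes called with a compound or among the 2 smallest F-test p of their list, and, for Hexim1 and members passing the F test, the 3 genes with the highest r over group means. A gene that this rule picked is not named. Plots were drawn with matplotlib 3.10.9.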

Additional observations from a re-analysis of the deposited data

How the results depend on the processing

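Among the 100 pairs of gene and compound, the 1 call became 2 after median-ratio rescaling, where Hexim1 with DZNep was added (log2 change 1.03, limma adjusted p = 0.0352), 0 when only the libraries of a compound and NC were fitted, and 4 at any fold. In the same settings the 56 genes of the elongation lists gave 0 and 18 calls instead of 7 in the last 2, and all genes gave 607 and 7300 instead of 3719. Fits with fewer libraries have fewer residual degrees of freedom, and the cause of the other shifts was not tested. Leaving out a library gave 0 to 2 calls for the members, 2 to 7 for the lists and 2018 to 4218 for all genes. The 3 members that passed the F test became 1 after rescaling, and 1 to 3 when a library was left out, with 1 without Bromosporine replicate 1, OICR replicate 1 or UNC0379 replicate 2. A pseudocount of 10, no filter, no variance trend, a reference made from the other 10 groups and a common adjustment over all 10 comparisons kept each of these counts within 1.5 times, although Cdk9 with DZNep lost its pass at any fold under the last 3. Against the mean of the other 10 groups, the log2 difference was -1.41 for Hexim2 with Valproate and -0.82 for Aff4 with DZNep, and that of Hexim1 with DZNep was 0.70 (limma adjusted p = 0.0469).

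The labels do not say whether the numbers pair the libraries. The correlation of replicate differences between a compound and NC ran from 0.0836 to 0.183, and each group has only 2 libraries. Over all 55 pairs of groups it ran from 0.0535 to 0.298 (median 0.196) and was over 0.1 in 51. As 52.6% of all genes differed between the numbers, a number marks something shared across groups. The main fit leaves this difference in the spread between libraries, and passes and misses near the threshold depend on that choice. With the replicate number as a block, the members' count stayed at 1, all genes gave 6304 calls, and 7 members passed the F test, as did 65.9% of all genes. In this block fit 8 of the 100 pairs passed at any fold, beside 10.6% of all tests, with Cdk9 and Bromosporine (limma adjusted p = 0.0102), Hexim1 and DZNep (0.00317), Larp7 and DZNep (0.0277), and Mepce and Valproate (0.0191) added. The 6 members that differed between numbers became 4 without the groups as terms. For Aff4 and Aff1, which did not pass, the small difference between numbers turned positive without either DZNep library (0.00995 and 0.0226), and leaving out a library moved it from -0.0827 to 0.00995 and from -0.0471 to 0.0226. Depth per library is unknown, and with 2 libraries a group, changes under 2-fold in Hexim1 and Larp7 lay within the intervals.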
